A study of Mus musculus with 12 samples.

Results

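The 12 RNA-seq libraries came from hippocampal tissue of mice in 4 labelled genotypes with 3 libraries each: WT, 5xFAD, Ulk1OV (named for Ulk1, an autophagy kinase gene) and 5xFAD;Ulk1OV. The libraries compared here were divided by whether they held reads of Lamr1-ps1, a processed pseudogene (GRCm38 chromosome 2, 131904086 to 131904959) that ends 4.97 kb before the prion protein gene Prnp. A library with 100 or more raw Lamr1-ps1 counts was called read-positive and a library with 0 counts read-negative, which gave 5 and 7 of the 12. The read-positive libraries were the 3 labelled 5xFAD and replicates 1 and 2 labelled 5xFAD;Ulk1OV, with 184 to 304 counts. The read-negative libraries were the 3 labelled WT, the 3 labelled Ulk1OV and the library labelled 5xFAD;Ulk1OV replicate 3, with 0 counts each, so no library lay between 0 and 184. The class and the 5xFAD label therefore coincided in 11 libraries and parted in 1. The classes were set from a count in the same libraries. The calls, the leading genes and the gene lists are therefore set beside the fit on the 11 libraries. In that fit, groups by class and by label are the same. The library it leaves out was picked by the same count, so that fit is not free of the rule. Grouping all 12 libraries by the 5xFAD label is free of it, and called 0 genes. The labels name no age, strain or driving promoter, and do not say that replicates were separate animals. All p-values thus rest on the spread between libraries, part of which may be technical. Read counts per gene totalled 16149992 to 18547132 per library, and 17226 of 54427 listed genes were tested, with Lamr1-ps1 left out. Dentate granule cells are a neuron type of the hippocampus. Their markers summed to 719.3 to 1178 CPM (read counts scaled to library size) in read-positive and 649.6 to 1065 CPM in read-negative libraries.

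The 5xFAD line is a mouse model of Alzheimer's disease in which neurons express mutant human transgenes, among them amyloid precursor protein (APP), and amyloid plaques form in the brain. Microglia, the brain's resident macrophages, gather around such plaques and switch on a set of genes for lipid handling, phagocytosis and lysosomal breakdown, while their resting-state receptors can decline. Astrocytes near plaques become reactive and make more of the filament protein GFAP. In bulk tissue, more cells of a type and more RNA per cell cannot be told apart.

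Outside the genes that moved with the reads that set the classes, 2 genes were called higher in read-positive libraries, Cst7 and Ccl6. Their promoters, the 300 bases around each RefSeq start on GRCm38.p6, are shown because these are the genes that the comparison turns on. Capitals mark AGGAAGT or its reverse complement, the core bound by ETS factors, a family that includes the myeloid factor PU.1. This motif was chosen after the sequences were seen. Both promoters read 5′ to 3′.
Cst7, chr2:150570165-150570464, plus strand: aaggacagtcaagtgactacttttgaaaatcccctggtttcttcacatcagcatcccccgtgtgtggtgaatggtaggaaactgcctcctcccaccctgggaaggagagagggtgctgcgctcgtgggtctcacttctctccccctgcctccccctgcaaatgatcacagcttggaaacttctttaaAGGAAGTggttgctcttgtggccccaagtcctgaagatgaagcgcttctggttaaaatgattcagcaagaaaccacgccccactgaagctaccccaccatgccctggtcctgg
Ccl6, chr11:83593038-83593337, minus strand: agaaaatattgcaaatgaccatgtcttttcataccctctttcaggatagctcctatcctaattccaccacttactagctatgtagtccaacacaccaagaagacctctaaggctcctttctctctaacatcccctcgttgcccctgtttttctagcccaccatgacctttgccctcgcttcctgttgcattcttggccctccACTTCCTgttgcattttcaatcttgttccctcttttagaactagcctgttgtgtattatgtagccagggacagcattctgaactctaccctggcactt
Each promoter held 1 match, and 9.35% of 32851 promoters of this length held at least 1 on either strand. Neither held the shorter GAGGAA, which 28.3% of promoters held, or the AP-1 motif TGACTCA, which 5.2% held. A match is a description of letters in the window and no evidence of binding.

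App and Prnp moved with the reads that set the classes, and their values are given as a description. App, the gene of the amyloid precursor protein (chromosome 16, 84949685 to 85173766), stood at 2664, 2343 and 2562 CPM in the 5xFAD libraries and 2584 and 2198 CPM in 5xFAD;Ulk1OV replicates 1 and 2. In the 7 read-negative libraries it ran from 1240 to 1492 CPM with a median of 1377. Prnp (chromosome 2, 131909928 to 131938429) stood at 2507, 2140 and 2373 CPM and at 2199 and 2065 CPM in the same read-positive libraries, against 899.1 to 1117 CPM with a median of 970.6. The classes did not overlap in either gene, and the log2 fold changes were 0.83 ± 0.07 (SE) for App and 1.16 ± 0.07 for Prnp. The library labelled 5xFAD;Ulk1OV replicate 3 had 1309 CPM of App and 953 CPM of Prnp, both inside the range of the 6 libraries without a 5xFAD label.

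Thy1, the gene whose promoter is known to drive the 5xFAD transgenes, ran from 506.5 to 605 CPM in read-positive and 537 to 640.8 CPM in read-negative libraries. Its log2 fold change was -0.02 ± 0.07 (edgeR adjusted p = 1), a value that turned positive in some of the alternatives. Of 8 tested genes around Prnp, Prnp alone was called, and the list's median was -0.03. Of 22 genes of APP processing, which include the secretases, App alone was called and the median was 0.03. By label in 11 libraries these medians were -0.01 and 0.02. Ulk1, the kinase gene named in the Ulk1OV label, ran from 63.44 to 98.42 CPM in read-positive and 73.99 to 101.9 CPM in read-negative libraries. The library labelled 5xFAD;Ulk1OV replicate 3 had 84.96 CPM of Ulk1, where the other libraries with the Ulk1OV label had 84.52 to 101.9 and those without had 63.44 to 86.17. It therefore lay where these ranges meet.

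**Figure D1:**
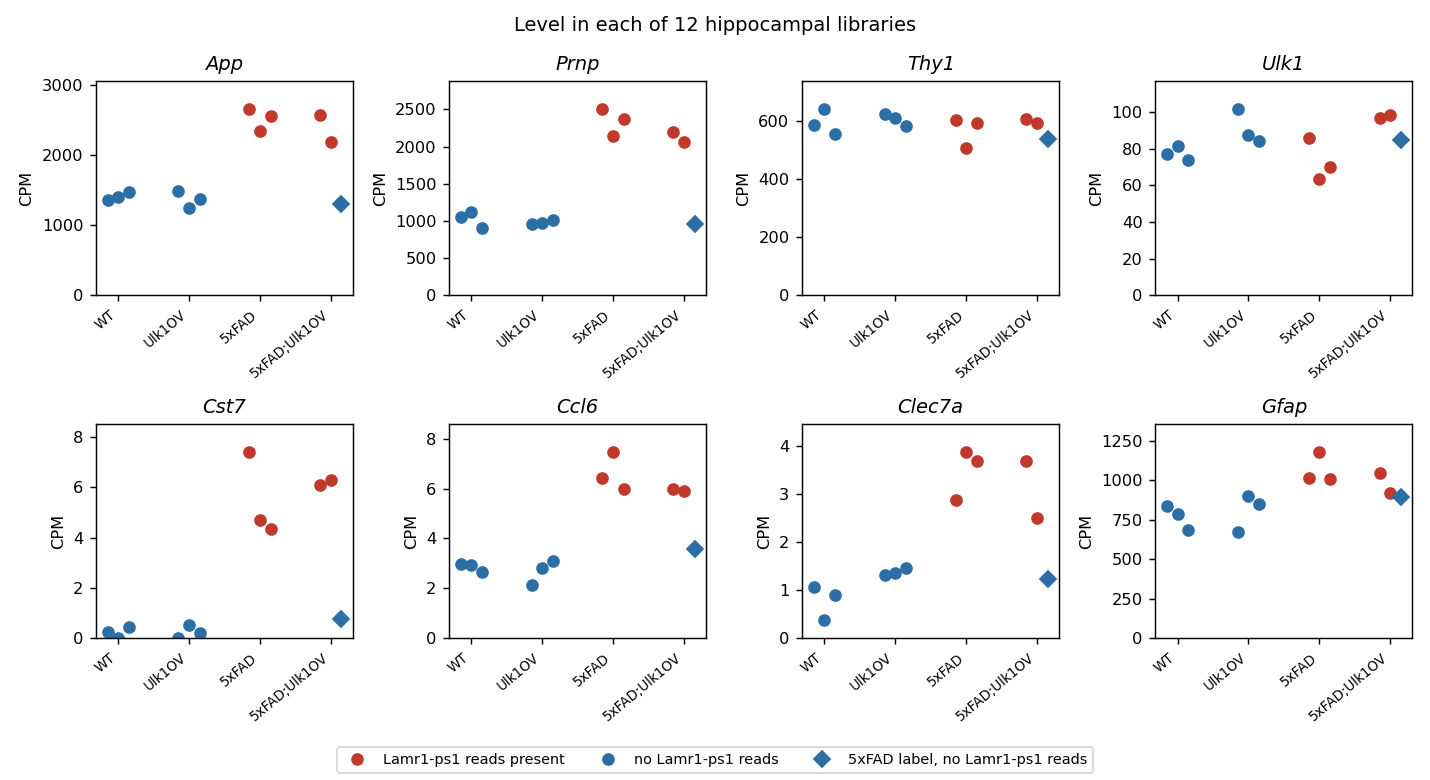
Level of 8 genes in CPM (y axis, from 0) in each library, by labelled group (x axis, 3 libraries each); red points are libraries with Lamr1-ps1 reads, blue points libraries with none, and the blue diamond is the library labelled 5xFAD;Ulk1OV replicate 3. The red points lie apart from the blue ones in App, Prnp, Cst7, Ccl6, Clec7a and Gfap, while Thy1 and Ulk1 overlap.

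The comparison of read-positive with read-negative libraries, with the Ulk1OV label as a further term, gave each transcript a difference pooled over both labels. It did not ask whether the difference held under each label. At a Benjamini-Hochberg adjusted p under 0.05, edgeR (quasi-likelihood) called 4 of 17226 genes (0.0232%), all higher: Prnp, App, Cst7 and Ccl6. It called 0 genes lower, and DESeq2 called 1 lower and 10 higher. At an unadjusted p under 0.05 edgeR gave 710 genes (4.12%), 310 higher and 400 lower. The p-values are not independent of the choice of classes, which used a count from these libraries. The median log2 fold change over all genes was -0.00066.

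Cst7, which encodes cystatin F, an inhibitor of lysosomal cysteine proteases made by immune cells (chromosome 2, 150570415 to 150578944), rose. It stood at 7.40, 4.71 and 4.35 CPM in 5xFAD replicates 1 to 3 and at 6.085 and 6.28 CPM in 5xFAD;Ulk1OV replicates 1 and 2. In the read-negative libraries it ran from 0 to 0.778 CPM with a median of 0.235. The means were 5.765 ± 1.24 CPM (SD, n = 5) and 0.316 ± 0.287 CPM (SD, n = 7), a log2 fold change of 4.23 ± 0.49 (edgeR adjusted p = 0.00281). The highest read-negative library was the one labelled 5xFAD;Ulk1OV replicate 3, far below the lowest read-positive one. Without that library the log2 fold change by label was 4.57 ± 0.49 (edgeR adjusted p = 0.00254). Cst7 passed the filter on low counts through the read-positive libraries, and 3 counts, the limit that a count of 0 allows, correspond to at most 0.187 CPM.

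Ccl6, a chemokine gene of myeloid cells (chromosome 11, 83587882 to 83593087), also rose. It stood at 6.437, 7.46 and 6.003 CPM in 5xFAD and 5.97 and 5.91 CPM in 5xFAD;Ulk1OV replicates 1 and 2. The read-negative libraries had 2.12 to 3.56 CPM with a median of 2.94, so the classes did not overlap. The means were 6.36 ± 0.651 (SD, n = 5) and 2.89 ± 0.439 CPM (SD, n = 7), a log2 fold change of 1.124 ± 0.15 (edgeR adjusted p = 0.0115). Without the library labelled 5xFAD;Ulk1OV replicate 3 the value by label was 1.18 ± 0.15 (edgeR adjusted p = 0.00997). The call of Ccl6 ended without 5xFAD;Ulk1OV replicate 1 (edgeR adjusted p = 0.0663) or WT replicate 1 (edgeR adjusted p = 0.05095), with log2 fold changes of 1.143 and 1.128.

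Both genes were higher in read-positive libraries with and without the Ulk1OV label. Among the 6 libraries without it the log2 fold change was 4.54 ± 0.61 for Cst7 and 1.20 ± 0.19 for Ccl6, and among the 6 with it 3.98 ± 0.57 and 1.04 ± 0.24. The test of the difference between the labels gave an edgeR adjusted p of 0.751 for Cst7 and 0.738 for Ccl6. Tested in the 6 libraries without the Ulk1OV label alone, neither gene was called (edgeR adjusted p = 0.165 for Cst7 and 0.19 for Ccl6). When all 12 libraries were grouped by the 5xFAD label in place of the reads, edgeR called 0 genes (450, or 2.61%, at an unadjusted p under 0.05), with Cst7 at an edgeR adjusted p of 0.108 and Ccl6 at 0.145.

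Plaque-associated microglial genes lay above 0 as a group. Of 41 listed genes 39 passed the filter on low counts, 2 were called (Cst7 and Ccl6), and 35 had log2 fold changes above 0. At an unadjusted p under 0.05, 17 were higher (43.6%) and 0 lower, where 1.8% of all genes tested were higher and 2.32% lower. In 7 of the 39 the classes did not overlap and all 7 were higher in read-positive libraries, where 0.192% of all genes did so. Cst7 and Ccl3, counted among the 17 and the 7, passed the filter on low counts through the read-positive libraries. Their part in these counts is therefore a description. The list's median log2 fold change was 0.27, and 0.27 also in the 11 libraries by label, with 16 genes higher and 0 lower at an unadjusted p under 0.05 against 1.45% and 1.93% of all genes. Summed over the list, the level was 7595 to 9258 CPM in read-positive libraries (median 8346) and 7157 to 8935 CPM in read-negative ones (median 8141), so the summed levels overlapped. The list was chosen with earlier results of these data known.

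After Cst7 and Ccl6, the members with the smallest p were receptors. Clec7a, the pattern recognition receptor dectin-1, stood at 2.88, 3.87 and 3.69 CPM in 5xFAD and 3.68 and 2.50 CPM in 5xFAD;Ulk1OV replicates 1 and 2, against 0.381 to 1.47 CPM with a median of 1.22. Its log2 fold change was 1.68 ± 0.26 (edgeR adjusted p = 0.0589), and 1.69 ± 0.28 in the 11 libraries by label (edgeR adjusted p = 0.155). In a fit that adds the interaction with the Ulk1OV label, chosen after seeing the data and calling 8 genes (0.0464%), its edgeR adjusted p was 0.0131, and 0.0416 in the 11 libraries. Trem2, a lipid-sensing receptor of microglia, stood at 23.7, 28.4 and 24.3 CPM and at 32.6 and 31.9 CPM, against 14.4 to 22.1 CPM with a median of 18.9. Its log2 fold change was 0.64 ± 0.13 (edgeR adjusted p = 0.33), and 0.66 ± 0.14 in the 11 libraries (edgeR adjusted p = 0.633). In the fit with the interaction its edgeR adjusted p was 0.0404, and 0.0423 in the 11 libraries. The classes did not overlap in either receptor, with the read-positive libraries above. With all 12 libraries grouped by the 5xFAD label, the log2 fold changes were 1.47 for Clec7a and 0.58 for Trem2 (edgeR adjusted p = 0.9995 each). In the comparison by reads DESeq2 called both, and it also called Cd68.

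Other members of the list were named after their values were seen. Cd68, a lysosomal membrane glycoprotein gene, ran from 12.9 to 14.9 CPM in read-positive and 8.12 to 11.45 CPM in read-negative libraries, a log2 fold change of 0.51 ± 0.10. Ccl3, a chemokine gene, ran from 0.558 to 1.18 CPM against 0.222 to 0.490 CPM (1.32 ± 0.30 as log2 fold change), and Grn, the progranulin gene, from 68.0 to 73.0 CPM against 49.6 to 66.3 CPM (0.27 ± 0.07). These 3 genes also had classes that did not overlap, but Ccl3 passed the filter on low counts through the read-positive libraries. It had 10 to 21 counts in those and 4 to 9 in read-negative ones, so its separation is a description. Itgax, an integrin subunit gene, with a log2 fold change of 1.37 ± 0.32, and Tyrobp, the signalling adaptor of Trem2, with 0.52 ± 0.13, overlapped between classes. Apoe, the lipid carrier that plaque-associated microglia make, had a log2 fold change of 0.01 ± 0.15, with -0.38 ± 0.10 in libraries without the Ulk1OV label and 0.43 ± 0.16 in those with it (edgeR adjusted p of the interaction = 0.0378). Astrocytes make it too. In the additive fit the lowest edgeR adjusted p among these genes was 0.342, for Cd68.

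**Figure D2:**
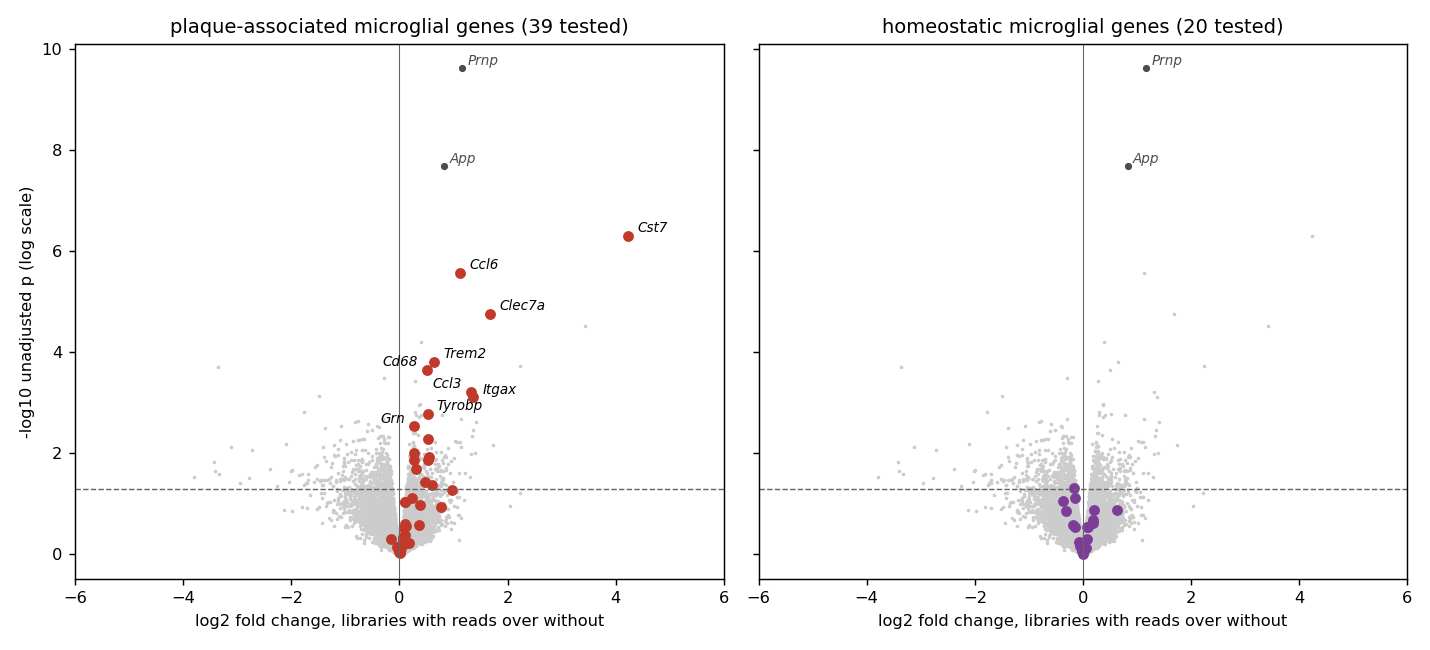
Log2 fold change between read-positive and read-negative libraries (x axis) against -log10 of the unadjusted p from edgeR (y axis) for 17226 genes in grey, with 39 plaque-associated microglial genes in red (left) and 20 homeostatic microglial genes in purple (right); the dashed line is an unadjusted p of 0.05. Above the line 17 plaque-associated genes lie to the right of 0 and 0 to the left, while 1 homeostatic gene lies above it, to the left.

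Genes of resting microglia had a median near that of all genes. Of 20 homeostatic microglial genes 0 were called, 0 were higher and 1 lower at an unadjusted p under 0.05, and the median log2 fold change was -0.01, against -0.02 with 1 lower in the 11 libraries by label. Their summed level was 1136 to 1460 CPM in read-positive and 1247 to 1482 CPM in read-negative libraries, so the classes overlapped. The lower gene was Gas6, a bridging ligand for phagocytic receptors, at -0.17 ± 0.08 (edgeR adjusted p = 1). General myeloid genes had a median of 0.19, with 27 of 30 above 0 and 0 called. At an unadjusted p under 0.05, 3 were higher (10%, beside 1.8% of all genes). The 11 libraries by label gave a median of 0.18 with 1 higher at the unadjusted threshold. Mpeg1, a pore-forming protein gene of macrophages, ran from 51.3 to 73.0 CPM against 39.7 to 51.0 CPM without overlap (log2 fold change 0.37 ± 0.09, edgeR adjusted p = 1). Ly86, a partner of a toll-like receptor relative, had 0.35 ± 0.15 with overlapping classes.

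In the complement, interferon response and antigen presentation lists C4a alone passed the unadjusted threshold. Of 15 complement genes 0 were called and the median was 0.17, with C4a lower at -1.14 ± 0.39 as log2 fold change (edgeR adjusted p = 1). C4a is nearly identical to C4b, which stood at 0.24 ± 0.14, so reads of the pair are uncertain. Of 26 interferon response genes 0 were called, 0 passed an unadjusted p of 0.05 either way, and the median was -0.07, which turned to 0.04 in the 11 libraries by label. Of 18 antigen presentation genes 0 were called and 0 passed the unadjusted threshold, with a median of 0.12. Of 30 lysosomal genes 3 were higher at the unadjusted threshold (10%, beside 1.8% of all genes), 0 were called and the median was 0.04. Summed, lysosomal genes stood at 6031 to 6187 CPM in read-positive and 5739 to 5967 CPM in read-negative libraries, without overlap. All 3 higher genes, Grn and the cathepsin genes Ctsz and Ctsd, are also members of the plaque-associated list, so the lists are not separate evidence. Without the Ulk1OV label Ctsz stood at 0.06 ± 0.11, Ctsd at 0.03 ± 0.10 and Grn at 0.18 ± 0.09. With it they stood at 0.50 ± 0.10, 0.60 ± 0.14 and 0.36 ± 0.11. The interaction was not called in Ctsz or Ctsd (edgeR adjusted p = 0.0856 and 0.0801). The complement, antigen presentation and lysosomal medians were 0.18, 0.12 and 0.04 in the 11 libraries.

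Reactive astrocyte genes lay above 0 more often than below, without a call. Of 23 listed genes 20 were tested, 5 were higher (25%, beside 1.8% of all genes) and 0 lower at an unadjusted p under 0.05, and the median was 0.17. In the 11 libraries by label 4 were higher and the median was 0.18. The median was 0.03 in libraries without the Ulk1OV label and 0.31 in those with it. In the interaction 2 of the 20 were called, beside 7.27% of all genes. Gfap, the astrocyte filament gene, stood at 1013, 1178 and 1006 CPM in 5xFAD and 1049 and 917.1 CPM in 5xFAD;Ulk1OV replicates 1 and 2. The read-negative libraries had 672.9 to 901.2 CPM with a median of 838.9, so the classes did not overlap, and the gap between them was small. The log2 fold change was 0.37 ± 0.10 (edgeR adjusted p = 1), and 0.39 ± 0.10 in the 11 libraries (edgeR adjusted p = 1). The summed level of the list was 1856 to 2112 CPM against 1473 to 1849 CPM, Gfap included, without overlap. The nearest sums were 1856 CPM in 5xFAD;Ulk1OV replicate 2, of which Gfap made 917.1, and 1849 CPM in replicate 3, of which Gfap made 891.2. Without Gfap these libraries change order, so the classes overlap and the separation is that of Gfap. Osmr, a cytokine receptor subunit, and Cd44, a hyaluronan receptor, had log2 fold changes of 0.65 ± 0.20 and 0.50 ± 0.18 with overlapping classes (edgeR adjusted p = 1 each). Cd44 stood at 0.11 ± 0.19 without the Ulk1OV label and 0.91 ± 0.21 with it. Aspg, an asparaginase gene, stood at -0.19 ± 0.22 and 1.72 ± 0.28 (edgeR adjusted p of the interaction = 0.0163). All 15 homeostatic astrocyte genes lay below 0 with a median of -0.12, against -0.09 in the 11 libraries. At the unadjusted threshold 2 were lower, beside 2.32% of all genes, and 1 in the 11 libraries. The list's median was -0.05 in libraries without the Ulk1OV label, where some members lay above 0, and -0.24 in those with it. In the interaction 0 of the 15 were called. Gjb6, a gap junction subunit of astrocytes, had -0.28 ± 0.10, with -0.10 ± 0.08 without the label and -0.48 ± 0.13 with it.

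Cholesterol synthesis genes, which make the sterol that myelin and membranes need, lay mostly above 0. Of 22 genes 20 lay above 0, 9 were higher (40.9%, beside 1.8% of all genes) and 0 lower at an unadjusted p under 0.05, 0 were called and the median was 0.18. The median was 0.09 in libraries without the Ulk1OV label and 0.34 in those with it, and the interaction called 4 of the 22 genes more positive and 1 more negative with the label, beside 7.27% of all genes. The summed level was 1576 to 1762 CPM in read-positive and 1256 to 1715 CPM in read-negative libraries, so the classes overlapped. Fdft1, which makes squalene, stood at 132.0, 136.2 and 133.5 CPM in 5xFAD and 137.5 and 115.2 CPM in 5xFAD;Ulk1OV replicates 1 and 2, against 84.02 to 117.8 CPM with a median of 106.8. Its log2 fold change was 0.30 ± 0.08 (edgeR adjusted p = 1), and 5xFAD;Ulk1OV replicate 2 fell inside the read-negative range. In the 11 libraries by label 8 genes of this list were higher at the unadjusted threshold and the median was 0.17.

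Neuronal lists held 0 called genes. At an unadjusted p under 0.05, 1.8% of all genes tested were higher and 2.32% lower, the shares to set beside the counts below. GABAergic interneuron markers had 14 of 16 below 0, with a median of -0.23 and 3 lower at an unadjusted p under 0.05 (18.8%). Pvalb, a calcium-binding protein of fast-spiking interneurons, ran from 30.2 to 50.3 CPM against 44.0 to 57.6 CPM (log2 fold change -0.36 ± 0.12), and Sst, the somatostatin gene, from 149 to 369.8 CPM against 333.8 to 497.5 CPM (-0.43 ± 0.19). Both overlapped between classes, and the edgeR adjusted p was 1 for each. Of 16 tested hippocampal neuropeptide genes 1 was lower at the unadjusted threshold, and the median was -0.07. Of 28 synapse genes 1 was higher and the median was 0.10. Of 24 activity-dependent genes 2 were higher and the median was 0.08. Among dentate granule cell markers 1 of 12 was higher at the unadjusted threshold, C1ql2, a synaptic organiser of mossy fibres, at 0.52 ± 0.22 (edgeR adjusted p = 1). Pyramidal neuron markers had 2 of 15 higher and 1 lower, with a median of 0.04. In the 11 libraries by label the medians were -0.25 for GABAergic, -0.07 for neuropeptide, 0.09 for synapse, 0.07 for activity-dependent, 0.15 for dentate and 0.07 for pyramidal genes.

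Lists for autophagy, mitochondria and myelin held 0 called genes, where 1.8% of all genes were higher and 2.32% lower at the unadjusted threshold. Of 35 autophagy genes, which include the ULK1 complex, 0 passed the unadjusted threshold either way and the median was -0.01. Of 20 oligodendrocyte and myelin genes 0 passed either way and the median was -0.03, which turned to 0.01 in the 11 libraries by label. Nuclear respiratory chain genes had 38 of 45 below 0 with a median of -0.07, and 1 was lower at the unadjusted threshold. Their median was -0.23 in libraries without the Ulk1OV label and 0.09 in those with it. The interaction called 10 of the 45, all more positive with the label, beside 7.27% of all genes. With an offset for GC content and length it called 6 more positive and 1 more negative. Among 13 mitochondrially encoded protein genes 12 lay below 0 with a median of -0.22, and 1 was lower at the unadjusted threshold, mt-Atp6, at -1.01 ± 0.42 (edgeR adjusted p = 1). Reads of mt-Atp6 overlap those of mt-Atp8, so its value is uncertain. Medians in the 11 libraries were -0.01 for autophagy (1 gene lower at the unadjusted threshold), -0.07 for nuclear respiratory chain and -0.23 for mitochondrially encoded genes.

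**Figure D3:**
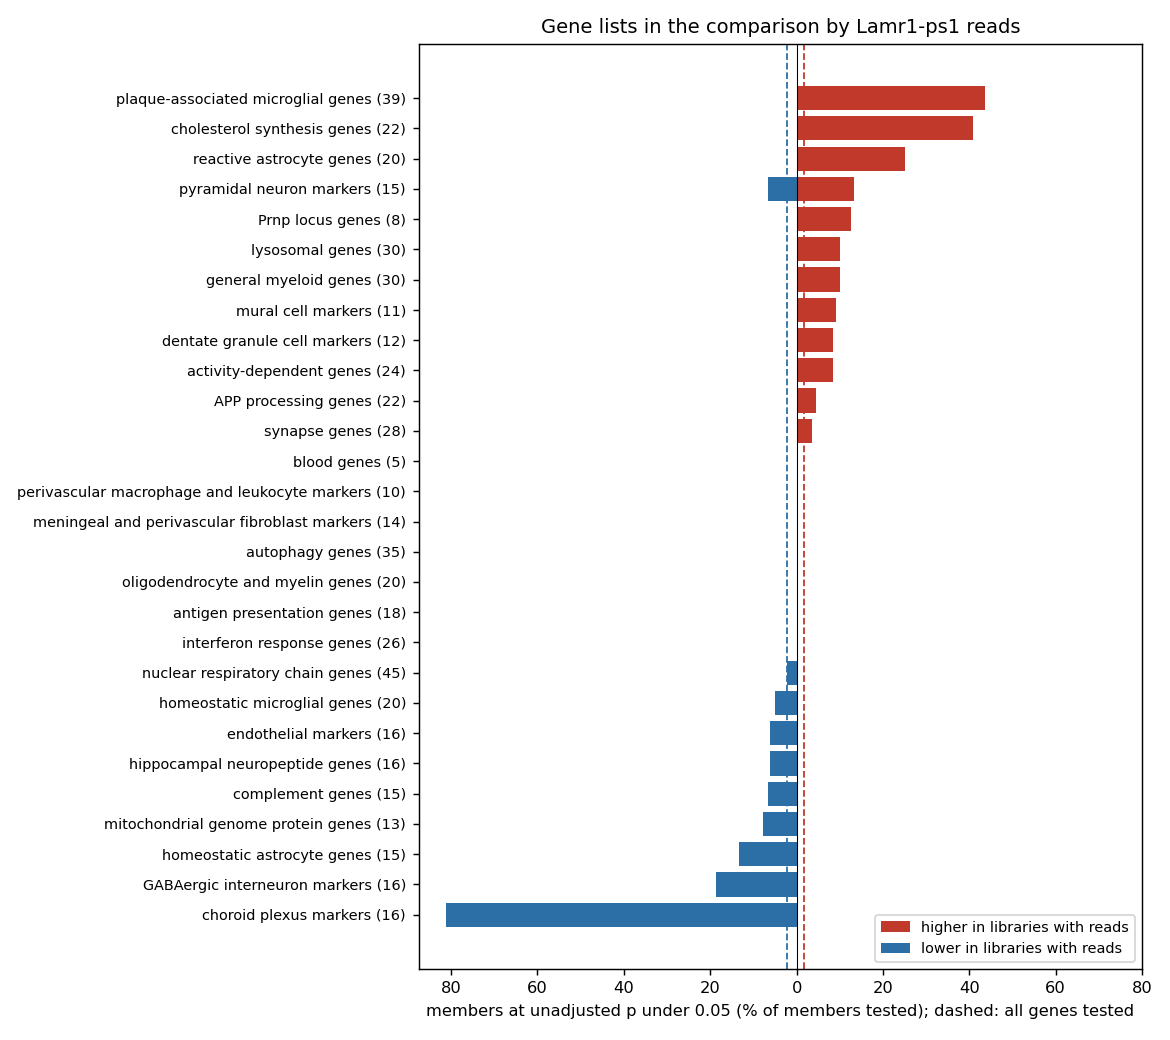
Share of the tested members of each of 28 gene lists (y axis, number tested in brackets) that were higher (red, right) or lower (blue, left) in read-positive libraries at an unadjusted p under 0.05 (x axis, percent); dashed lines mark the same shares over all 17226 genes. Plaque-associated microglial and cholesterol synthesis genes reach 43.6% and 40.9% on the higher side, and choroid plexus markers have the longest bar on the lower side.

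Markers of other cell types were measured beside these lists. All 16 choroid plexus markers lay below 0 (median -1.75) with 0 called. At an unadjusted p under 0.05, 13 were lower (81.2%, beside 2.32% of all genes). Ttr was the most abundant of them by its mean over the 12 libraries, but made only 5.08 of the list's 213.2 CPM in 5xFAD replicate 1. It ran from 5.08 to 284.7 CPM in read-positive libraries. In read-negative libraries it stood at 5943 CPM in WT replicate 3, 3990 CPM in Ulk1OV replicate 1 and 12.3 to 173.3 CPM in the other 5. WT replicate 3 and Ulk1OV replicate 1 thus held most of this signal. Without those 2 libraries the choroid plexus median was 0.08 and 0 of 16 markers passed the unadjusted threshold, while 17 of 39 plaque-associated genes were higher at that threshold, with a median of 0.29. Without the library labelled 5xFAD;Ulk1OV replicate 3 instead, the choroid plexus median was -1.85 with 13 of 16 lower. Cst7 stood at 4.20 ± 0.46 without them (edgeR adjusted p = 0.00584) and Ccl6 at 1.03 ± 0.15 (edgeR adjusted p = 0.0839), so the call of Ccl6 ended.

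Border macrophages and blood leukocytes share myeloid genes with microglia. Their 10 tested markers of 14 had a median of 0.15 with 0 past the unadjusted threshold, and their summed level was 14.2 to 28.9 CPM in read-positive and 11.4 to 39.9 CPM in read-negative libraries. Blood genes summed to 52.0 to 160.9 CPM against 54.5 to 208.3 CPM, and the median of the 5 genes was 0.04 on the log2 scale. Meningeal and perivascular fibroblast markers had a median of 0.40 with 0 of 14 past the unadjusted threshold, and endothelial markers a median of -0.16 with 1 of 16 lower. In the 11 libraries by label the medians were 0.21 for the border macrophage and leukocyte markers, -0.05 for blood genes, whose sign turned, 0.34 for fibroblast and -0.12 for endothelial markers. The part of these cells in the microglial result was not tested beyond these values.

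The library labelled 5xFAD;Ulk1OV replicate 3 took no part in the fit on the other 11 libraries by label. Its levels thus played no part in that fit's estimates, but they did enter the filter on low counts, which used all 12 libraries. That fit called the same 4 genes (0.0232% of 17226), and in all 4 the library lay nearer to the Ulk1OV libraries than to the read-positive libraries with the Ulk1OV label. Of these, App and Prnp move with the reads that set the classes. It was inside the range of the libraries without a 5xFAD label in 2 of the 4 and between the classes in the other 2, Cst7 and Ccl6. Among 581 genes at an unadjusted p under 0.05 in that fit (3.37%) it lay nearer to the Ulk1OV libraries in 421 (72.5%), where it did so in 50.7% of all genes tested. Of 16 plaque-associated genes higher at the unadjusted threshold in that fit it did so in 15. These genes were picked with the libraries that the distances use, in groups of unequal size, so 50.7% is not a matched share. In 78 genes without overlap by label in the 11 libraries, the left-out library lay in the range of libraries without a 5xFAD label in 42. It lay in the read-positive range in 15 and in neither in 21. For the 8 plaque-associated genes among them these counts were 3, 1 and 4.

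Among genes picked out with the Ulk1OV label alone its position was more even. Among the 5 other libraries with the Ulk1OV label, edgeR called 1382 genes (8.02%) between read-positive and Ulk1OV libraries. The left-out library lay nearer to the Ulk1OV libraries in 765 of them (55.4%) and nearer to its labelled group in 617, against 50.7% of all genes nearer to the Ulk1OV libraries. Here too the genes were picked with the libraries that the distances use, so the shares are not matched.

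The class difference depended on the Ulk1OV label in many genes. The test of the interaction between class and Ulk1OV label called 1253 genes (7.27%), 679 with a more positive difference under the Ulk1OV label and 574 with a more negative one. Of these, 1242 (99.1%) had log2 fold changes of opposite sign in the 6 libraries without the label and the 6 with it, beside 11550 (67.1%) of all genes tested. The interaction picks genes for a large difference between these values, which favours opposite signs, so the share is a description and no separate result. Alone, the 6 libraries without the Ulk1OV label gave 1 called gene (0.00581%), Prnp, and the 6 with it 372 (2.16%). The interaction rests on few libraries: without 5xFAD;Ulk1OV replicate 2 it called 34 genes, without replicate 1 of that group 63, and without the library labelled replicate 3 it called 2547 (14.8%). It called 171 without WT replicate 1, 376 without WT replicate 2, 356 without 5xFAD replicate 2 and 519 without 5xFAD replicate 3. It called 762 without Ulk1OV replicate 2, 496 without Ulk1OV replicate 3 and 2079 without 5xFAD replicate 1. An offset for each gene's GC content and length left 420 calls (2.44%), 275 more positive and 145 more negative. The labels name no batch, so a batch and the groups cannot be told apart.

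Several lists had medians of opposite sign in libraries without and with the Ulk1OV label. For fibroblast markers the median log2 fold change was -0.99 without the Ulk1OV label and 1.90 with it, and 11 of 14 were called in the interaction, as many as with the offset. Activity-dependent genes, induced by neuronal firing, had medians of -0.31 and 0.47 with 9 of 24 called, and 6 with the offset. Antigen presentation genes had medians of -0.43 and 0.60 with 7 of 18 called, and 3 with the offset. Mitochondrially encoded protein genes had medians of 0.20 and -0.73 with 7 of 13 called, and 2 with the offset. All called members of the first 3 lists were more positive with the label, and those of the last more negative. The plaque-associated microglial list had medians of 0.15 and 0.38, on the same side of 0, with 2 of 39 called, beside 7.27% of all genes.

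**Figure D4:**
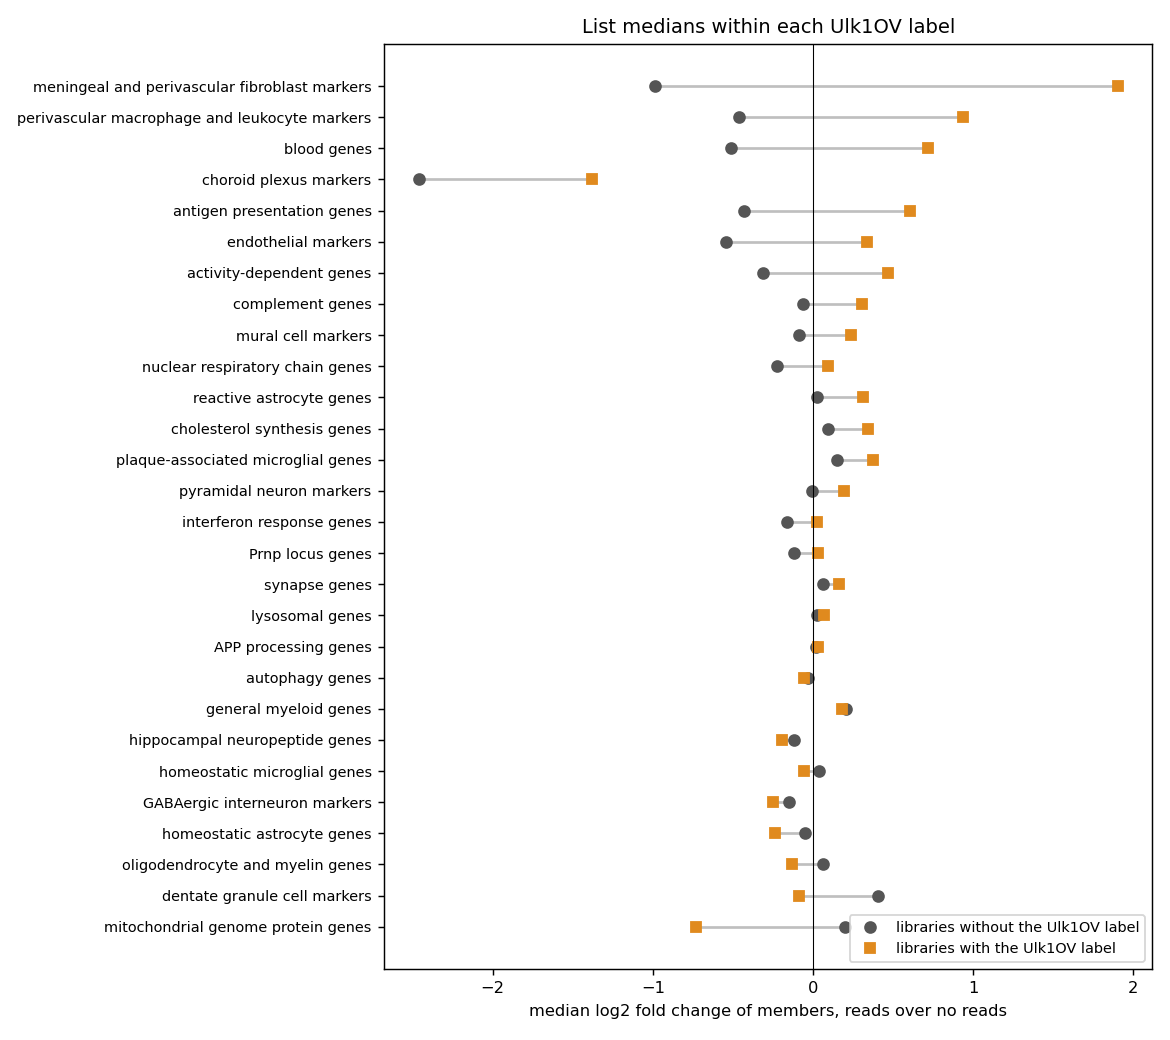
Median log2 fold change between read-positive and read-negative libraries (x axis) of each of 28 gene lists (y axis), in the 6 libraries without the Ulk1OV label (grey circles, 3 against 3) and the 6 with it (orange squares, 2 against 4). Fibroblast markers lie at -0.99 and 1.90, mitochondrial genome protein genes at 0.20 and -0.73, and plaque-associated microglial genes at 0.15 and 0.38.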

How the data were processed

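Reads were filtered with FastQC and Trim Galore, per the labels' protocols, and the submitters' processing notes also list HISAT2, SAMtools, featureCounts, DESeq2 and mm10, with no versions. The authors deposited raw read counts per gene; whether strand was used in counting is not stated, so overlapping genes and pseudogenes are uncertain. The filter on low counts (filterByExpr, by labelled group) left 17226 genes, which edgeR 4.0.16 (R 4.3.3) scaled by TMM and tested with class plus Ulk1OV label over all 12 libraries. Genes were called at a Benjamini-Hochberg adjusted p under 0.05 over all genes tested. SE was taken as the size of the log2 fold change over the root of its F statistic, and CPM uses TMM-scaled library sizes. The fit was tested on simulated data.

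Always named were App, Prnp, Thy1 and Ulk1 and 1 gene that is not reported here, then up to 12 called genes per direction by log2 fold change with a mean of at least 1 CPM and classes that do not overlap, then up to 4 members of each of 28 lists by p; of these the text describes some, and Cd68, Ccl3, Grn, Itgax, Tyrobp, Apoe, Ttr, Hip1, Hsp90b1 and Rps26-ps1 were chosen after their values were seen. The members, lists and rule were chosen with earlier results of these data known. GC content and length came from GENCODE M21 for 99.3% of genes, and promoters from RefSeq (GRCm38.p6). The 24 symbols that had turned into calendar dates were left as they were. No 2 libraries of a group agreed within sampling noise (chi-square over its degrees of freedom 7.25 to 30.2). Alternatives were DESeq2 1.42.0, its size factors, no filter, a replicate block, grouping by label, no Ulk1OV term, a GC and length offset, each Ulk1OV label alone and each library left out; an interaction term and leaving out both libraries high in choroid plexus markers were added after seeing the data.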

Additional observations from a re-analysis of the deposited data

Results flagged for a closer look

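The difference between read-positive and read-negative libraries depended on the Ulk1OV label in 1253 genes by edgeR's interaction test. Hip1, a clathrin adaptor gene, was among them: its class difference was 0.90 lower with the Ulk1OV label than without it, an interaction of -0.90 on the log2 scale (edgeR adjusted p = 0.00634). Its log2 fold change was -0.03 ± 0.08 without the label and -0.91 ± 0.11 with it.

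In 3 of 56 tests of a class in a named gene, 1 library lay far from the others; chance gives about 1 in 20. Thy1 in 5xFAD replicate 2 stood at 506.5 CPM, with a gap to the next read-positive library of 0.857 of the class's range. Fdft1 in 5xFAD;Ulk1OV replicate 2 stood at 115.2 CPM, with a gap of 0.752 of the range. Sst in Ulk1OV replicate 2 stood at 497.5 CPM, with a gap of 0.59 of the read-negative range.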

How the results depend on the processing

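The additive comparison called 4 genes, and 11 by DESeq2, 22 without the filter on low counts (9 higher, 13 lower), 0 by the 5xFAD label, 1 and 372 in the libraries without and with the Ulk1OV label, and 8 with the added interaction; leaving out 1 library in turn gave 3 to 7, the 7 without 5xFAD replicate 2. All 4 genes were among the calls in each of these and the other settings except the label grouping (0), each Ulk1OV label alone (1 without, 3 with), the replicate block (3), both libraries high in choroid plexus markers left out (3), and the fits without 5xFAD;Ulk1OV replicate 1 or WT replicate 1 (3 each). The 1253 interaction calls became 2199 by DESeq2, 2382 without the filter, 420 with the added GC and length offset, and 34 to 2547 with 1 library left out. Plaque-associated genes called were 2, and 5 by DESeq2, 4 without the filter, 0 by label, 0 and 5 without and with the Ulk1OV label, 4 with the interaction, 1 without both libraries high in choroid plexus markers, and 1 to 3 with 1 library left out (1 without 5xFAD;Ulk1OV replicate 1 or WT replicate 1). Thy1 changed sign in libraries with the Ulk1OV label (0.0399) and without single libraries (-0.0425 to 0.0177). Ulk1 changed sign in the replicate block (-0.0234), by label (-0.0266), without the Ulk1OV term (-0.0274), with the GC and length offset (-0.0280), without the Ulk1OV label (-0.10) and without single libraries (-0.0366 to 0.068). Without both libraries high in choroid plexus markers Ttr and Kcne2 turned to 0.57 and 0.65. Replicate numbers did not pair the libraries (deviations correlated at -0.18 to 0.22, 4 of 18 pairs over 0.1, and 5 of 12 libraries matched their own number best); with the replicate block 3 genes were called and Ccl6 was not (edgeR adjusted p = 0.0664), 1 plaque-associated gene was called, and 240 genes in the interaction. The cause of these changes was not tested. Low counts limit genes such as Ccl3, under 1.2 CPM in each library.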

Other observations

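Rps26-ps1, a transcribed processed pseudogene of a ribosomal protein gene (GRCm38 chromosome 8, 107439131 to 107439579), stood apart in the read-positive libraries with the Ulk1OV label. It had 44.1 and 44.0 CPM in 5xFAD;Ulk1OV replicates 1 and 2, 6.88 CPM in 5xFAD replicate 3, 1.46 and 0.847 CPM in the other 5xFAD libraries, and 0.544 to 3.86 CPM in the 7 read-negative libraries. The library labelled 5xFAD;Ulk1OV replicate 3 had 1.72 CPM, far from the other libraries of its group. The log2 fold change between classes was 3.43 ± 0.57 (edgeR adjusted p = 0.0862), and 3.29 ± 0.62 in the 11 libraries by label (edgeR adjusted p = 0.369). Its reads can be shared with Rps26 and other copies, so the value is uncertain, and the gene was chosen after its values were seen.

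A fit that adds the interaction of class and Ulk1OV label, and averages the class difference over both labels, called 8 genes, among them the 4 of the additive fit. The others were Clec7a, Trem2, Rps26-ps1 and, as the only one lower, Hip1 (-0.47 ± 0.06, edgeR adjusted p = 0.012), whose difference lay in libraries with the Ulk1OV label. In the 11 libraries by label the same fit called 6 genes higher and 2 lower. Rps26-ps1 was then not called (edgeR adjusted p = 0.0573), while Clec7a, Trem2 and Hip1 were (edgeR adjusted p = 0.0416, 0.0423 and 0.0106). The second lower gene was Hsp90b1, an endoplasmic reticulum chaperone gene, at an edgeR adjusted p of 0.048.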
